A study of Mus musculus with 18 samples.

Results

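The genes described here encode 8 enzymes of the route by which squalene is turned into cholesterol: Sqle, Lss, Cyp51, Tm7sf2, Nsdhl, Hsd17b7, Ebp and Dhcr7. They were chosen by symbol from 23420 genes with a row in every file, and all 8 were among the 17166 genes with enough reads to be tested. The material was cultures of E14, a wild-type line of mouse embryonic stem (ES) cells, and every group therefore comes from 1 line. RNA-seq was done on 18 libraries, 2 in each of 9 groups.

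Among the ES groups, held in serum and LIF without feeder cells, 3 were exposed for 24 h to the liver X receptor (LXR) agonist GW3965, to the retinoid X receptor (RXR) agonist LG268, or to both, each at 1 µM, and the fourth was the day 0 control. The other groups came from cultures differentiated through embryoid bodies, with 5 µM all-trans retinoic acid over 4 days, and then plated in a neural medium: day 16 with GW3965, day 17 with GW3965, and days 8, 16 and 17 without it. Retinoic acid was part of the differentiation protocol, so differentiated cultures with and without GW3965 share it. Dimethylsulfoxide was the stated vehicle. The labels do not give how long GW3965 was present in the differentiated cultures. File names read as exposure from day 8 for the day 16 group and as 24 h for the day 17 group. They also read as control for the libraries that the labels give as treated with both ligands. The labels do not say whether the 2 libraries of a group were separate cultures, so the p-values may measure only technical spread.

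Cholesterol synthesis runs in 2 stages, a mevalonate arm that ends in squalene and a sterol arm in which squalene is oxidised, closed into lanosterol and trimmed to cholesterol. Many of its genes are under the transcription factor SREBP2, which is held in the endoplasmic reticulum when sterols are plentiful and released when they are scarce. LXR, a nuclear receptor that pairs with RXR, responds to oxidised sterols and is best known for raising genes of cholesterol export, such as Abca1. In the brain cholesterol is made locally, and astrocytes and myelin-forming oligodendrocytes are known as major producers.

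Gene counts summed to 16.75 to 44.79 M reads per library (median 23.515 M), with 17407 to 18775 genes detected. The summary lines of the 4 day 17 files put 31.84 to 33.53% of reads down to multiple alignment, against 0 in the 14 others, so a difference between day 17 and another day cannot be told apart from this difference in file handling. The comparison of GW3965 with no ligand at day 17 lies within those 4 files. Replicates differed most with GW3965 at day 16, with a chi-square of 42.06 per gene, and next with both ligands in ES cells (10.74). The other groups lay between 2.858 and 7.117. Abca1, a gene that LXR raises, checked the labels: it was at 345 and 327 CPM (counts scaled for library depth) with GW3965, 39.9 and 38.1 CPM with LG268 and 576 and 531 CPM with both ligands in ES cells, against 8.79 and 7.51 CPM in the ES control. It was also above its control in both libraries with GW3965 at days 16 and 17. All labels call the cells embryonic stem cells, but the summed level of 5 pluripotency markers was 14.1 to 51.5 CPM in the differentiated groups, against 1780 to 2000 CPM in the ES groups.

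The 8 genes lie on 7 chromosomes (GRCm38, GENCODE M21). Sqle is on the plus strand at chr15:59315077-59331192 and encodes squalene epoxidase, which oxidises squalene. Lss, at chr10:76531588-76557138 on the plus strand, encodes lanosterol synthase, which closes the product into the first sterol. Cyp51 (chr5:4081145-4104746, minus strand) removes the methyl group at carbon 14 of lanosterol, and Tm7sf2 (chr19:6062821-6068373, minus strand) is a reductase that acts on the double bond left there. Nsdhl (chrX:72918557-72958514, plus strand) and Hsd17b7 (chr1:169949535-169969241, minus strand) act in the removal of the methyl groups at carbon 4, as the decarboxylating dehydrogenase and the ketone reductase. Ebp (chrX:8185329-8193512, minus strand) shifts a ring double bond, and Dhcr7 (chr7:143823145-143848410, plus strand) reduces 7-dehydrocholesterol to cholesterol. Without a stated strand setting, reads of overlapping genes may be shared: Tm7sf2 overlaps Vps51 on the same strand over 12.1% of its exon length, Cyp51 overlaps Akap9 on the opposite strand over 3.76%, and Lss overlaps the antisense gene 4930483K19Rik over 3.53%. The share of 50-base stretches also found in another gene was 9.87% for Tm7sf2, 2.77% for Cyp51, 1.86% for Lss, 1.37% for Dhcr7 and 0.0358% for Sqle, and 0 for Nsdhl, Hsd17b7 and Ebp.

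Promoter windows of 250 bases before to 50 after the start site were found in RefSeq (GRCm38.p6) for 7 of the 8 genes, 9 windows in all. Windows of 3 genes are shown because these genes behaved differently in these cultures: Nsdhl, whose levels were most like the mean of the 8 genes, Hsd17b7, whose levels were least like it, and Lss, which had the widest range. Capitals mark CCAAT, the box bound by the factor NF-Y, read on either strand (ATTGG), and in Hsd17b7 also a match to TCACNNCAC. The windows are chrX:72918271-72918570 (plus strand), chr1:169969156-169969455 (minus strand) and chr10:76531355-76531654 (plus strand).
Nsdhl: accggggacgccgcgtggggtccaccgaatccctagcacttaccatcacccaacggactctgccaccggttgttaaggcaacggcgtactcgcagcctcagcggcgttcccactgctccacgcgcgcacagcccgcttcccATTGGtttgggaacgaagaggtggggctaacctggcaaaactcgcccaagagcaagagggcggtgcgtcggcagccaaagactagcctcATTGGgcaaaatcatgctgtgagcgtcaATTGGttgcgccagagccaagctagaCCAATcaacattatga
Hsd17b7: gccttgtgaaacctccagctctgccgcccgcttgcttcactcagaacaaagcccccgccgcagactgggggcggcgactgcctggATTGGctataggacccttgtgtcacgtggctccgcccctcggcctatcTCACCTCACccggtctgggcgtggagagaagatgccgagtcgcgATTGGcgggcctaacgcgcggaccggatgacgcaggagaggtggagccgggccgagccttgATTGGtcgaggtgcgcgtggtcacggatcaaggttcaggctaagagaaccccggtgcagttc
Lss: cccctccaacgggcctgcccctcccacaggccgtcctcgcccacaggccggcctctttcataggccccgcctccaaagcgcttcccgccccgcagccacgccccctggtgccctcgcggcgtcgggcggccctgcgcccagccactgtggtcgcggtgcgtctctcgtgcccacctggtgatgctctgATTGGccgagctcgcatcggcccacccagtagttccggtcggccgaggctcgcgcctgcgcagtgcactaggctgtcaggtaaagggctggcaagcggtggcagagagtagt

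The Nsdhl window holds 4 CCAAT boxes, that of Hsd17b7 holds 3 and that of Lss holds 1. CCAAT, searched on both strands, was in 7 of the 9 windows and at all 7 genes, and in 37.4% of all 32851 windows of the table. GGGCGG, the box of Sp1-type factors, was in 8 of the 9 windows, against 35.7% of all windows. The core of the sterol regulatory element, TCACNCCAC, was in 0 of the 9 windows, against 1.24% of all. The looser TCACNNCAC, chosen after the windows were read, was in the Hsd17b7 window at -117 from the start site and in 1 of the 3 Dhcr7 windows, and in 3.77% of all windows. A direct repeat of GGTCA with 4 bases between was in 0 of the 9 windows, against 0.0457% of all windows. LXR and RXR bind repeats of the longer AGGTCA with 4 bases between. The pattern searched does not have that spacing, so their elements were not searched for. These matches describe letters in the windows only.

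Per length of the longest coding transcript, the ES control levels of the 8 genes covered more than an order of magnitude. Sqle was highest at 69.8 ± 0.41 RPKM (counts per transcript kilobase, scaled for depth), followed by Dhcr7 at 62.2 ± 1.05 and Cyp51 at 43.6 ± 0.0849 (SD, n = 2 each). Lss was at 30.9 ± 0.332, Nsdhl at 26.8 ± 0.255 and Ebp at 16.3 ± 0.106 RPKM. Tm7sf2 was at 13.7 ± 1.48 and Hsd17b7 lowest at 5.80 ± 0.633 RPKM. All later values are in CPM and are compared within a gene.

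**Figure D1:**
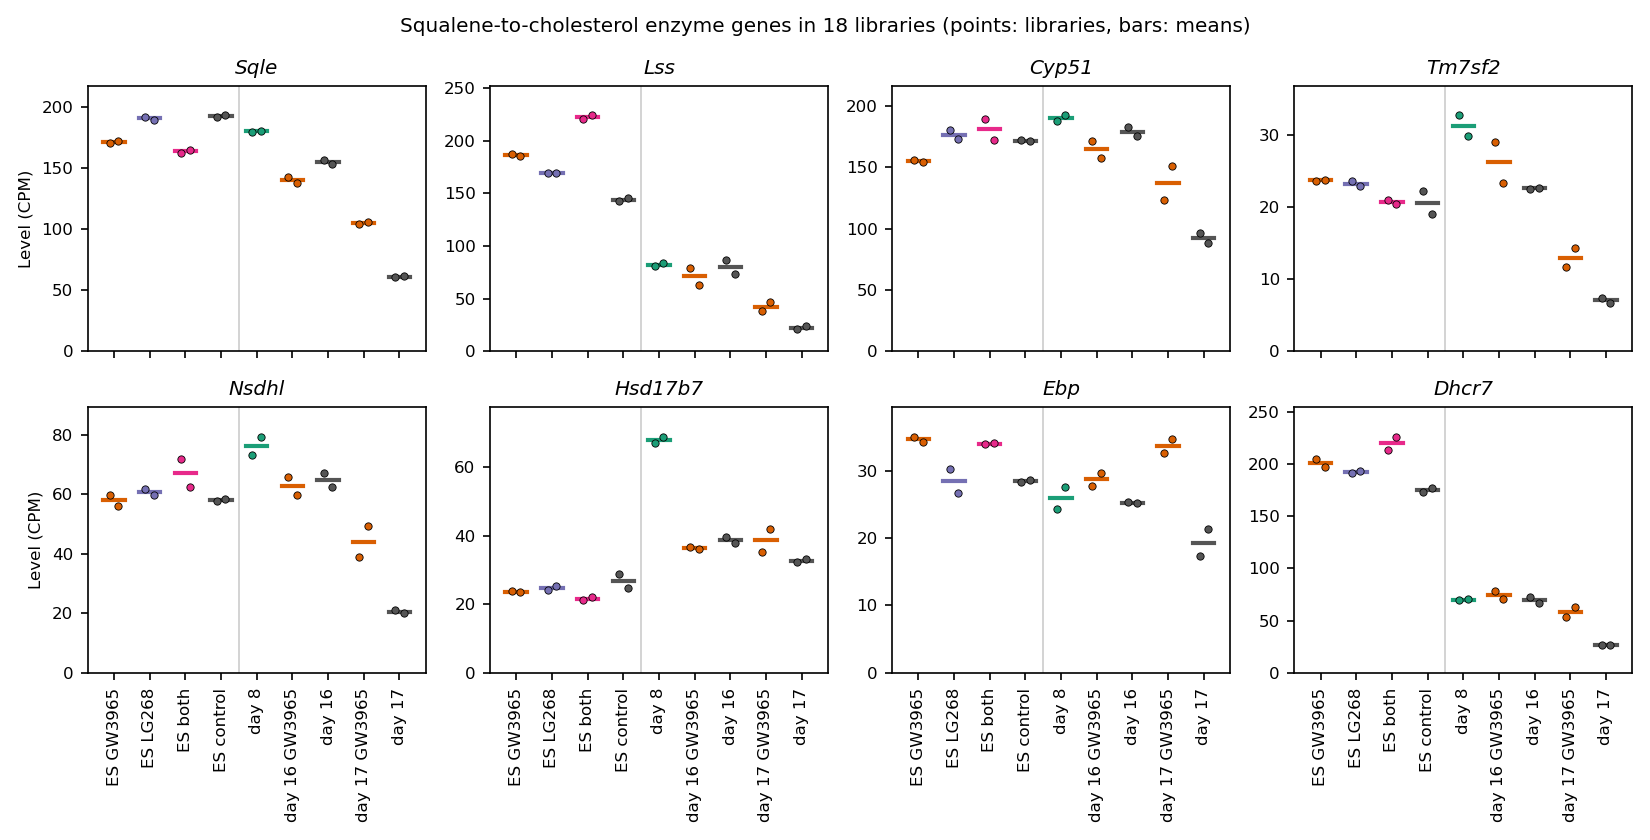
Level (CPM, vertical axis, linear from 0) of the 8 genes in each of the 18 libraries, by group (horizontal axis), 1 panel per gene; points are libraries and bars are group means. Day 17 without ligand was the lowest group for 7 of the 8 genes; Hsd17b7 was lowest with both ligands in ES cells.

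In the cultures without ligand, the 8 genes took separate courses from ES cells to day 8 and then all fell at day 17. Lss and Dhcr7, an early and the last step, fell at day 8, while Hsd17b7, Tm7sf2 and Nsdhl rose. The 3 rises compare with 39.7% of all tested genes called higher at day 8, and the 2 falls with 39.1% called lower, so these counts are near the background. In bulk RNA, fewer cells of a type and less RNA per cell cannot be told apart. The same ES control libraries serve this comparison and the ligand comparisons in ES cells, and the day 17 libraries without ligand serve both the last step and the GW3965 comparison of that day.

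Sqle, often called a rate-controlling step of the sterol arm, was at 192 and 193 CPM in the ES control, 179.8 and 181 CPM at day 8, 157 and 154 CPM at day 16 and 60.6 and 61.4 CPM at day 17. The groups do not overlap at any step. Its day 8 difference was not called (log2 fold change -0.09 ± 0.048 (SE), adjusted p = 0.0821) except with a filter of 1 CPM in 4 libraries (0.0445), and it fell at day 16 by 0.22 ± 0.048 (adjusted p = 0.000578) and at day 17 by 1.35 ± 0.0512 on the log2 scale, a level 2.54-fold lower (adjusted p = 2.73e-14).

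Lss was at 143 and 145 CPM in the ES control, 81.1 and 83.9 CPM at day 8, 87.2 and 73.4 CPM at day 16 and 20.9 and 24.1 CPM at day 17. Days 8 and 16 overlap, and both steps around them separate. The fall at day 8 was 1.75-fold (log2 -0.81 ± 0.0983, adjusted p = 2.63e-07) and that at day 17 was 3.58-fold (log2 -1.84 ± 0.113, adjusted p = 3.95e-11), the largest of the 8 genes at that step. At day 17 Lss stood at 15.6% of its ES control level.

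Dhcr7 was at 173 and 177 CPM in the ES control, 69.6 and 70.6 CPM at day 8, 72.2 and 66.8 CPM at day 16 and 26.8 and 26.8 CPM at day 17. Like Lss it moved down in a pair of steps with overlapping levels at days 8 and 16. It fell 2.50-fold at day 8 (log2 -1.32 ± 0.071, adjusted p = 7.26e-13) and 2.59-fold at day 17 (log2 -1.37 ± 0.0795, adjusted p = 1.68e-11), to 15.3% of the ES control level.

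Cyp51 was at 172 and 171 CPM in the ES control, 187 and 192 CPM at day 8, 182 and 176 CPM at day 16 and 96.3 and 88.2 CPM at day 17. Its groups lay close together until day 16: the day 8 difference (log2 0.14 ± 0.0751, adjusted p = 0.0849) was not called, but passed with no filter (0.0354), in the fit of the groups compared (0.000782) and without the day 17 libraries (0.00688). At day 17 Cyp51 fell 1.94-fold (log2 -0.95 ± 0.0776, adjusted p = 2.55e-09).

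Tm7sf2 was at 22.2 and 19.0 CPM in the ES control, 32.7 and 29.8 CPM at day 8, 22.5 and 22.7 CPM at day 16 and 7.39 and 6.71 CPM at day 17. Day 8 was above every other time and day 17 below every other time. It rose 1.52-fold at day 8 (log2 0.60 ± 0.115, adjusted p = 8.54e-05), fell 1.38-fold at day 16 (adjusted p = 0.00136) and fell 3.19-fold at day 17 (log2 -1.67 ± 0.134, adjusted p = 1.96e-09).

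Nsdhl was at 57.6 and 58.4 CPM in the ES control, 73.2 and 79.3 CPM at day 8, 67.1 and 62.5 CPM at day 16 and 21.1 and 20.1 CPM at day 17. The shape is that of Tm7sf2, with no overlap between neighbouring times. Its rise at day 8 was 1.31-fold (log2 0.40 ± 0.0912, adjusted p = 0.000575), its fall at day 16 1.18-fold (adjusted p = 0.0282) and its fall at day 17 3.14-fold (log2 -1.65 ± 0.102, adjusted p = 4.19e-11). The day 16 call was lost without the second day 16 library (adjusted p = 0.143) or the second day 8 library (0.142), with DESeq2 size factors (0.0658) and in the DESeq2 Wald test (0.0832).

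Hsd17b7 was at 28.8 and 24.7 CPM in the ES control, 66.9 and 68.8 CPM at day 8, 39.7 and 37.9 CPM at day 16 and 32.2 and 33.2 CPM at day 17. It was the 1 gene of the 8 whose day 17 level exceeded the ES control, at 122% of it. The rise at day 8 was 2.54-fold (log2 1.34 ± 0.0878, adjusted p = 1.67e-11) and was followed by a 1.75-fold fall at day 16 (log2 -0.81 ± 0.0844, adjusted p = 8.51e-08). The 1.19-fold fall at day 17 (log2 -0.24 ± 0.0888, adjusted p = 0.0239) was lost without either day 16 library (0.144 and 0.0532) or either day 17 library (0.137 and 0.0556).

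Ebp was at 28.3 and 28.6 CPM in the ES control, 24.3 and 27.6 CPM at day 8, 25.4 and 25.2 CPM at day 16 and 17.3 and 21.3 CPM at day 17. It varied least over the groups, and days 8 and 16 overlap. Its fall at day 17 was 1.32-fold (log2 -0.40 ± 0.102, adjusted p = 0.00241) and was lost without the first day 17 library (adjusted p = 0.105).

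Between days 8 and 16 the falls were those of Sqle, Tm7sf2, Nsdhl and Hsd17b7, 4 of 8 genes, where 32.2% of all tested genes were called lower. Between days 16 and 17 all 8 fell, where 29.5% of tested genes were called lower. The median log2 change of the 8 genes at that last step was -1.36, and that of all tested genes was -0.02. The summed level of the 8 genes was 817 and 818 CPM in the ES control, 715 and 733 CPM at day 8, 653 and 617 CPM at day 16 and 283 and 282 CPM at day 17.

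Markers of other cell types moved with these steps. The summed level of 5 astrocyte markers was 57.0 to 59.7 CPM at day 8, 845 to 878 CPM at day 16 and 2640 to 2970 CPM at day 17. Most of that sum was Gfap, with means of 575 CPM at day 16 and 2350 CPM at day 17, while Aldh1l1 (79.0 and 45.9 CPM) and S100b (4.04 and 1.17 CPM) ran the other way at that step. The sum of the neuron markers fell, from 3040 to 3110 CPM over 1500 to 1520 CPM to 1140 to 1180 CPM. Within it the mean of Snap25 rose at day 16 (86.1 CPM at day 8, 98.8 CPM at day 16). That of Map2 rose at day 17 (370 CPM at day 16, 397 CPM at day 17). The other neuron markers had lower means at each step. The 5 oligodendrocyte markers summed to 37.4 to 41.2, 127 to 142 and 61.6 to 97.7 CPM. Mog ran against that sum at both steps (3.18, 2.95 and 4.25 CPM). Mesenchyme markers summed to 9680 to 11100 CPM at day 16 and 7780 to 8690 CPM at day 17. Between these days the collagen genes of that list had lower means, Col1a1 by the most (3140 and 1450 CPM). The remaining markers of the list, Dcn (672 and 838 CPM) and Pdgfra (266 and 289 CPM), had higher means. No marker of these lists was at 0 in both libraries of a group from day 8 on. Their part in the changes of the 8 genes was not tested.

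**Figure D2:**
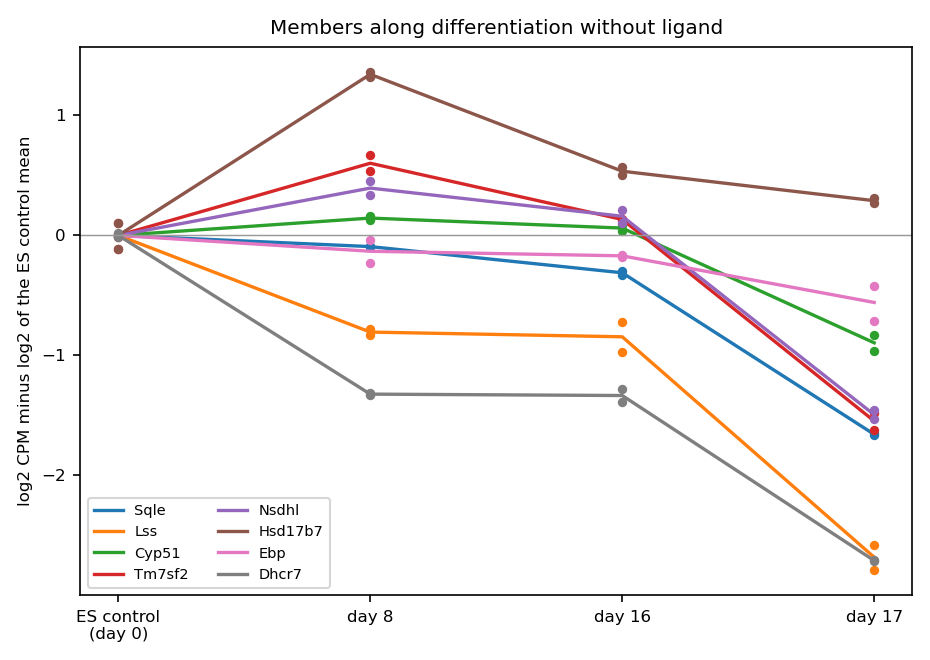
Difference in log2 CPM from the mean of the ES control (vertical axis) for the 8 genes in cultures without ligand, over the days of differentiation (horizontal axis); points are single libraries and lines join the means. Lines spread at day 8, from Hsd17b7 at the top to Dhcr7 at the bottom, and every line is lower at day 17 than at day 16.

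In ES cells neither ligand alone moved any of the 8 genes past the test in the main fit, of all libraries and the genes with enough reads. With GW3965, edgeR called 0 of 8 genes, where 0.320% of tested genes were called in either direction, and with LG268 0 of 8, where 0.851% were called. The DESeq2 Wald test also called 0 of 8 in each. At an unadjusted p below 0.05 there were 4 genes with GW3965 (Lss, Ebp, Dhcr7 and Sqle) and 1 with LG268 (Lss). Fitted log2 changes ran from -0.18 to 0.37 with GW3965 and from -0.11 to 0.23 with LG268. Lss was at the top of both ranges: it was at 188 and 186 CPM with GW3965, 169 and 169 CPM with LG268 and 143 and 145 CPM in the control. Both treated groups lay above the control without overlap, but neither difference passed the test across all genes (log2 0.37 ± 0.096, adjusted p = 0.17 with GW3965, and 0.23 ± 0.0963, adjusted p = 0.43 with LG268). Fitted on the 4 libraries compared, the GW3965 difference of Lss passed (adjusted p = 2.31e-07). It also passed with no filter on low counts (0.000103) and without the both-ligand and day 16 GW3965 libraries (0.0161). Such fits of the 4 libraries compared also called Dhcr7 (0.00284) and Ebp (0.0358) higher with GW3965. With LG268 they called Lss (0.000283) and Dhcr7 (0.0286) higher. Sqle ran the other way with GW3965, at 171 and 172 CPM, against 192 and 193 CPM in the control (log2 -0.17 ± 0.0481, adjusted p = 0.31). The fit of the 4 libraries compared called Sqle lower (0.0194).

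With both ligands together, 4 of the 8 genes were called in ES cells, 2 in each direction. Lss and Dhcr7 rose, where 4.83% of tested genes were called higher, and Sqle and Hsd17b7 fell, where 6.47% were called lower. Lss was at 220.5 and 224 CPM with both ligands, against 143 and 145 CPM in the control, and rose 1.54-fold (log2 0.62 ± 0.0965, adjusted p = 0.000359). Dhcr7 was at 214 and 226 CPM, against 173 and 177 CPM in the control, and rose 1.25-fold (log2 0.33 ± 0.0687, adjusted p = 0.00428). Both genes also had the lowest day 17 levels relative to the ES control. Sqle was at 163 and 165 CPM with both ligands, against 192 and 193 CPM in the control, and fell 1.17-fold (log2 -0.23 ± 0.0486, adjusted p = 0.00435). Hsd17b7 was at 21.1 and 22.1 CPM, against 28.8 and 24.7 CPM in the control, and fell 1.24-fold (log2 -0.31 ± 0.0958, adjusted p = 0.0436). None of the 4 genes overlapped between these groups, but the share of all tested genes without overlap was not counted. Of the calls, Lss stayed in every alternative, Dhcr7 was lost without the first control library (adjusted p = 0.0565), Sqle was lost in the fit of the 4 libraries compared (0.0941) and Hsd17b7 in 7 alternatives (0.053 to 0.376), among them without the first control library (0.376) or either both-ligand library (0.22 and 0.0567). The 4 remaining genes were not called: Ebp (log2 0.26 ± 0.0984, adjusted p = 0.0994) and Nsdhl (0.21 ± 0.0934, adjusted p = 0.166) had the larger differences.

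Between the ligand groups, LG268 against GW3965 gave 0 of 8 calls in edgeR (0.600% of tested genes in either direction) and in the DESeq2 Wald test, with 3 genes at an unadjusted p below 0.05. Both ligands against LG268 gave a rise of Lss (1.31-fold, log2 0.39 ± 0.096, adjusted p = 0.0255; 1.63% of tested genes were called higher) and a fall of Sqle (1.16-fold, log2 -0.22 ± 0.0486, adjusted p = 0.0159; 2.57% lower). Each of these calls was lost without either LG268 library or the first both-ligand library (adjusted p between 0.111 and 0.17). Both ligands against GW3965 gave 0 of 8 calls in edgeR (10.7% of tested genes in either direction), with Cyp51 nearest the threshold (log2 0.22 ± 0.0759, adjusted p = 0.0675) and 3 genes at an unadjusted p below 0.05. The DESeq2 Wald test called 2 of them, Cyp51 (adjusted p = 0.0192) and Lss (0.0441), and edgeR called Cyp51 without the second both-ligand library (0.0262). The departure from additivity of the 2 ligands was called for 0 of 8 genes by edgeR, where 0.134% of tested genes were called, and by the DESeq2 Wald test. It was widest for Tm7sf2 (log2 -0.37 ± 0.168, adjusted p = 0.338), the 1 gene with an unadjusted p below 0.05. These comparisons share libraries with each other and with the comparisons against the ES control.

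**Figure D3:**
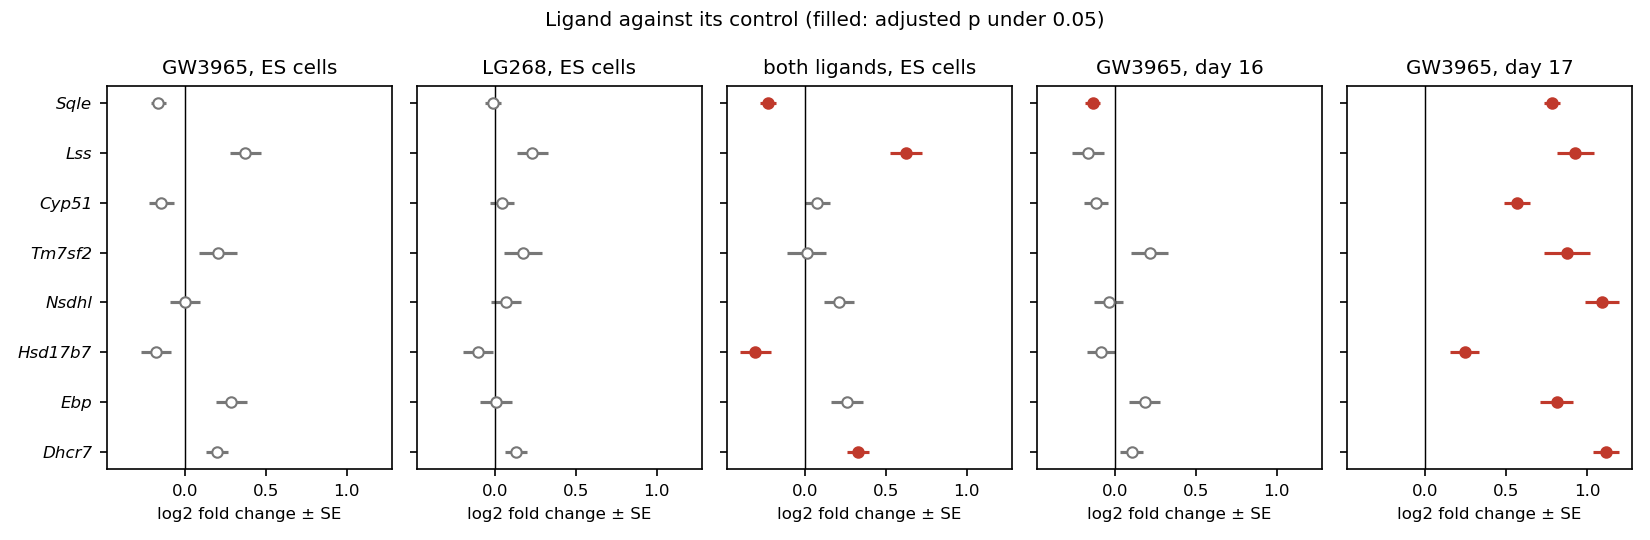
Log2 fold change against the matching control (horizontal axis) for the 8 genes (vertical axis) under each ligand treatment, 1 panel each: GW3965, LG268 and both in ES cells, and GW3965 at days 16 and 17. Bars on the points are standard errors of the fit (n = 2 libraries a group) and filled points have an adjusted p below 0.05. The day 17 points are all filled and positive, from 0.24 to 1.12, and at day 16 the single filled point is that of Sqle at -0.14.

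At day 16, 1 of the 8 genes was called with GW3965. Sqle was at 143 and 138 CPM with GW3965, against 157 and 154 CPM without it, and fell 1.10-fold (log2 -0.14 ± 0.0481, adjusted p = 0.0299), where 18.7% of tested genes were called lower. This call was lost in 9 alternatives (adjusted p between 0.051 and 0.201), among them without either day 16 library. The other 7 genes were not called with all libraries in the fit, and their fitted log2 changes ran from -0.17 for Lss to 0.21 for Tm7sf2 (adjusted p = 0.21 and 0.167). Lss was at 79.5 and 62.9 CPM with GW3965, against 87.2 and 73.4 CPM without it, so the groups overlap. Tm7sf2 was at 29.0 and 23.3 CPM with GW3965, against 22.5 and 22.7 CPM without it, with no overlap. Lss was called lower without the first GW3965 library (adjusted p = 0.0172), and Tm7sf2 higher without the second (0.0398). The summed level of the 8 genes was 631 and 579 CPM with GW3965, against 653 and 617 CPM without it. Beside these small differences, astrocyte markers were at 356 to 496 CPM with GW3965, against 845 to 878 CPM without it, mesenchyme markers at 4510 to 5720 CPM, against 9680 to 11100 CPM, and neuron markers at 2250 to 2430 CPM, against 1500 to 1520 CPM.

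At day 17 all 8 genes were higher with GW3965 than without it, where 17.2% of tested genes were called higher. Their median log2 change was 0.84, and that of all tested genes was 0.02. In each of the 8 genes both libraries with GW3965 lay above both without it. How many of all tested genes separate in this way was not counted.

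Dhcr7 was at 53.0 and 63.2 CPM with GW3965, against 26.8 and 26.8 CPM without it, the largest rise of the 8 at 2.17-fold (log2 1.12 ± 0.0808, adjusted p = 3.68e-09). Nsdhl was at 38.8 and 49.2 CPM with GW3965, against 21.1 and 20.1 CPM without it, and rose 2.13-fold (log2 1.09 ± 0.104, adjusted p = 1.54e-07). Lss was at 38.0 and 47.1 CPM with GW3965, against 20.9 and 24.1 CPM without it, and rose 1.90-fold (log2 0.93 ± 0.117, adjusted p = 4.7e-06). These 3 genes span the arm, from ring closure over the removal of the carbon 4 methyl groups to the last reduction.

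Tm7sf2 was at 11.7 and 14.3 CPM with GW3965, against 7.39 and 6.71 CPM without it, and rose 1.84-fold (log2 0.88 ± 0.141, adjusted p = 7.67e-05). Ebp was at 32.6 and 34.8 CPM with GW3965, against 17.3 and 21.3 CPM without it, and rose 1.76-fold (log2 0.81 ± 0.102, adjusted p = 4.33e-06). Sqle was at 104 and 106 CPM with GW3965, against 60.6 and 61.4 CPM without it, and rose 1.72-fold (log2 0.78 ± 0.0517, adjusted p = 1.09e-09). For Tm7sf2, Ebp and Sqle, as for the 3 genes before, the gap between the groups was wider than the spread within either.

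Cyp51 was at 123 and 150.5 CPM with GW3965, against 96.3 and 88.2 CPM without it, and rose 1.48-fold (log2 0.57 ± 0.0782, adjusted p = 1.38e-05). Hsd17b7 was at 35.4 and 42.0 CPM with GW3965, against 32.2 and 33.2 CPM without it, and rose 1.18-fold (log2 0.24 ± 0.0898, adjusted p = 0.041). The call of Hsd17b7 was lost without the second GW3965 library (adjusted p = 0.473), without either control library (0.178 and 0.0959) and with no filter on low counts (0.051), the DESeq2 Wald test (0.0647) or the fit of the 4 libraries compared (0.0847). The calls of the other 7 genes held in all 11 alternatives. In 7 of the 8 genes the second GW3965 library was higher than the first by more than the 2 control libraries differed, and the summed level was 436 and 507 CPM with GW3965, against 283 and 282 CPM without it.

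Set against day 16 without ligand, day 17 with GW3965 stood at 53.0% for Lss, 57.5% for Tm7sf2, 67.7% for Sqle, 67.9% for Nsdhl, 76.4% for Cyp51, 83.6% for Dhcr7, 99.7% for Hsd17b7 and 133% for Ebp. Without ligand, day 17 stood at 28.0% for Lss, 31.2% for Tm7sf2, 39.3% for Sqle, 31.8% for Nsdhl, 51.6% for Cyp51, 38.5% for Dhcr7, 84.3% for Hsd17b7 and 76.4% for Ebp. Both sets of shares cross the day 17 file difference.

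The response to GW3965 itself was compared between culture groups by the difference of the log2 changes. Against the day 16 response, the day 17 response was higher for all 8 genes (20.0% of tested genes were called higher), from 0.33 for Hsd17b7 (adjusted p = 0.0411) to 1.14 for Nsdhl (adjusted p = 2.77e-06). Against the ES response it was also higher for all 8 (8.59% of tested genes), from 0.42 for Hsd17b7 (adjusted p = 0.0271) to 1.09 for Nsdhl (adjusted p = 1.82e-05). For Sqle, Cyp51, Nsdhl and Dhcr7 both sets of calls held under every alternative. Against day 16, the call of Hsd17b7 was lost in 11 alternatives (adjusted p between 0.0531 and 0.272), among them without any single one of the 7 libraries other than the first day 17 GW3965 library, and that of Tm7sf2 without the second day 17 GW3965 library (0.0583). Against ES cells, leaving out the second day 17 GW3965 library ended the calls of Lss (0.108), Tm7sf2 (0.0958), Hsd17b7 (0.169) and Ebp (0.0514). Without the first day 17 control library the calls of Lss (0.103), Hsd17b7 (0.0886) and Ebp (0.103) were lost, and without the second those of Tm7sf2 (0.0612) and Hsd17b7 (0.0516). Without the first ES control library Tm7sf2 (0.0735) and Hsd17b7 (0.159) were lost, and without either ES GW3965 library Hsd17b7 (0.068 and 0.0716). Between day 16 and ES cells, Lss alone differed: its log2 change with GW3965 was lower at day 16 by 0.54 ± 0.138 (adjusted p = 0.0113; 9.89% of tested genes were called lower). That call was lost without the first day 16 library (adjusted p = 0.0782) or the second day 16 GW3965 library (0.0688). Duration of exposure, as the file names read, differs between days 16 and 17 along with age.

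Cell type markers also differed at day 17. The 5 astrocyte markers summed to 1640 to 2150 CPM with GW3965, against 2640 to 2970 CPM without it, the 5 neuron markers to 1370 to 1500 CPM, against 1140 to 1180 CPM, and the 5 neural progenitor markers to 486 to 604 CPM, against 367 to 406 CPM. Gfap made most of the astrocyte difference, with a mean of 1530 CPM with GW3965 and 2350 CPM without it, while S100b was at 6.77 CPM with GW3965 and 1.17 CPM without it. Among the neuron markers Snap25 ran against the sum, at 58.5 CPM with GW3965 and 72.8 CPM without it. The oligodendrocyte sum was 94.0 to 225 CPM with GW3965, against 61.6 to 97.7 CPM without it, and the groups overlap. The mesenchyme sum overlapped as well, at 7550 to 8390 CPM with GW3965 and 7780 to 8690 CPM without it. Its members moved both ways. With GW3965 the means of Col1a1 (2080 CPM, against 1450 CPM without it), Pdgfra (344 and 289 CPM) and Dcn (919 and 838 CPM) were higher. Those of Col3a1 (2770 and 3770 CPM) and Col1a2 (1860 and 1890 CPM) were lower. The part of these cell type markers in the rise of the 8 genes was not tested.

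The rest of cholesterol synthesis was read from fixed lists, of which 3 further genes reported here belong to the sterol arm, 8 to the mevalonate arm and 4 to sterol control. At day 17 with GW3965, 8 of these 8 mevalonate genes rose (median log2 change 0.86), as did 3 of 3 further sterol genes (0.45) and 2 of 4 regulators. Of all tested genes, 17.2% were called higher in this comparison. Hmgcs1, which makes HMG-CoA, rose by 1.10 ± 0.0901 on the log2 scale (adjusted p = 1.89e-08), and Sc5d, the desaturase that makes 7-dehydrocholesterol, by 0.49 ± 0.0869 (adjusted p = 0.000217). Among the regulators, Insig1, which retains SREBP in the endoplasmic reticulum and is itself a target of it, rose 3.02-fold (adjusted p = 3.44e-11) and Srebf2, which encodes SREBP2, rose 1.41-fold (adjusted p = 0.000459). Insig2 (log2 0.17 ± 0.0929, adjusted p = 0.163) and Scap (0.04 ± 0.102, adjusted p = 0.818) were not called.

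The fall at day 17 without ligand covered the same lists. It included 8 of 8 mevalonate genes (median log2 change -1.64), 3 of 3 further sterol genes (-0.44) and 3 of 4 regulators. Of all tested genes, 29.5% were called lower at this step. The call of Sc5d was lost without the second day 16 library (adjusted p = 0.0697) or the first day 17 library (0.0593). Idi1, the isomerase of the isoprene unit, fell 7.20-fold (log2 -2.85 ± 0.0994, adjusted p = 6.99e-15), more than any of the 8 sterol genes, and Fdps, which makes farnesyl diphosphate, fell by 2.20 ± 0.103 on the log2 scale (adjusted p = 7.84e-13).

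At day 16 with GW3965, 2 of the 3 further sterol genes fell. Lbr, which carries the same reductase activity as Tm7sf2 and anchors chromatin at the nuclear envelope, fell 1.43-fold (log2 -0.51 ± 0.0844, adjusted p = 0.000105), and Sc4mol, the methyl oxidase that works with Nsdhl and Hsd17b7, fell 1.31-fold (log2 -0.38 ± 0.0822, adjusted p = 0.00126). Sc5d was not called (log2 0.00 ± 0.0826, adjusted p = 0.992). Of the mevalonate genes 1 rose (Pmvk, log2 0.45 ± 0.0781, adjusted p = 0.000182) and 1 fell (Idi1, -0.38 ± 0.0776, adjusted p = 0.000841), where 13.0% of all tested genes were called higher and 18.7% lower. Of the 4 regulators 0 were called by edgeR, with 0 at an unadjusted p below 0.05; Srebf2 was nearest (log2 -0.18 ± 0.0921, adjusted p = 0.142) and was called with no filter on low counts (0.028) and in the fit of the groups compared (0.0454). The difference between these genes and the 8 described here was not tested.

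In ES cells, Pmvk rose with GW3965 (log2 0.47, adjusted p = 0.0028) and with both ligands (0.77, adjusted p = 1.95e-06). It was the 1 mevalonate gene of 8 called with GW3965 in the main fit, where 0.320% of all tested genes were called. The GW3965 call was lost without the first control library (adjusted p = 0.107) or the first GW3965 library (0.0613). Idi1 was not called with GW3965 in the main fit (-0.32, adjusted p = 0.0841). It was called lower with no filter on low counts (0.00786), by the DESeq2 Wald test (0.0156) and in the fit of the groups compared (1.31e-05). Sc4mol with GW3965 (-0.30, adjusted p = 0.203) was called lower with no filter (0.00505) and in that fit (5.37e-06). Both were also called without the both-ligand and day 16 GW3965 libraries (0.0106 and 0.0438). With both ligands Idi1 (-0.33, adjusted p = 0.00757) and Mvk (-0.27, adjusted p = 0.0484) fell. The Idi1 call was lost in 3 of 11 alternatives, without either control library (0.0562 and 0.0587) and in the fit of the groups compared (0.0553). That of Mvk was lost in 9 of 11 (up to 0.429, without the first both-ligand library). Insig1 was called higher in all 3 ligand groups, by 0.52 with GW3965 (adjusted p = 0.000657), 0.36 with LG268 (adjusted p = 0.0188) and 0.75 with both (adjusted p = 2.03e-06). The LG268 call of Insig1 was lost when any 1 of the 4 libraries compared was left out (adjusted p between 0.136 and 0.213). Of the further sterol genes Lbr was called against the control, with both ligands (0.33, adjusted p = 0.0101), and was lost without either control library (0.0575 and 0.0952). Between ligand groups, Sc4mol was higher with LG268 (0.42, adjusted p = 0.0158) and with both ligands (0.28, adjusted p = 0.0316) than with GW3965, and Sc5d was higher with both ligands than with GW3965 (0.28, adjusted p = 0.0389). The LG268 call of Sc4mol and the Sc5d call were each lost when any 1 of the 4 libraries compared was left out, and the both-ligand call of Sc4mol without either GW3965 library (0.149 and 0.148) or the first both-ligand library (0.337).

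**Figure D4:**
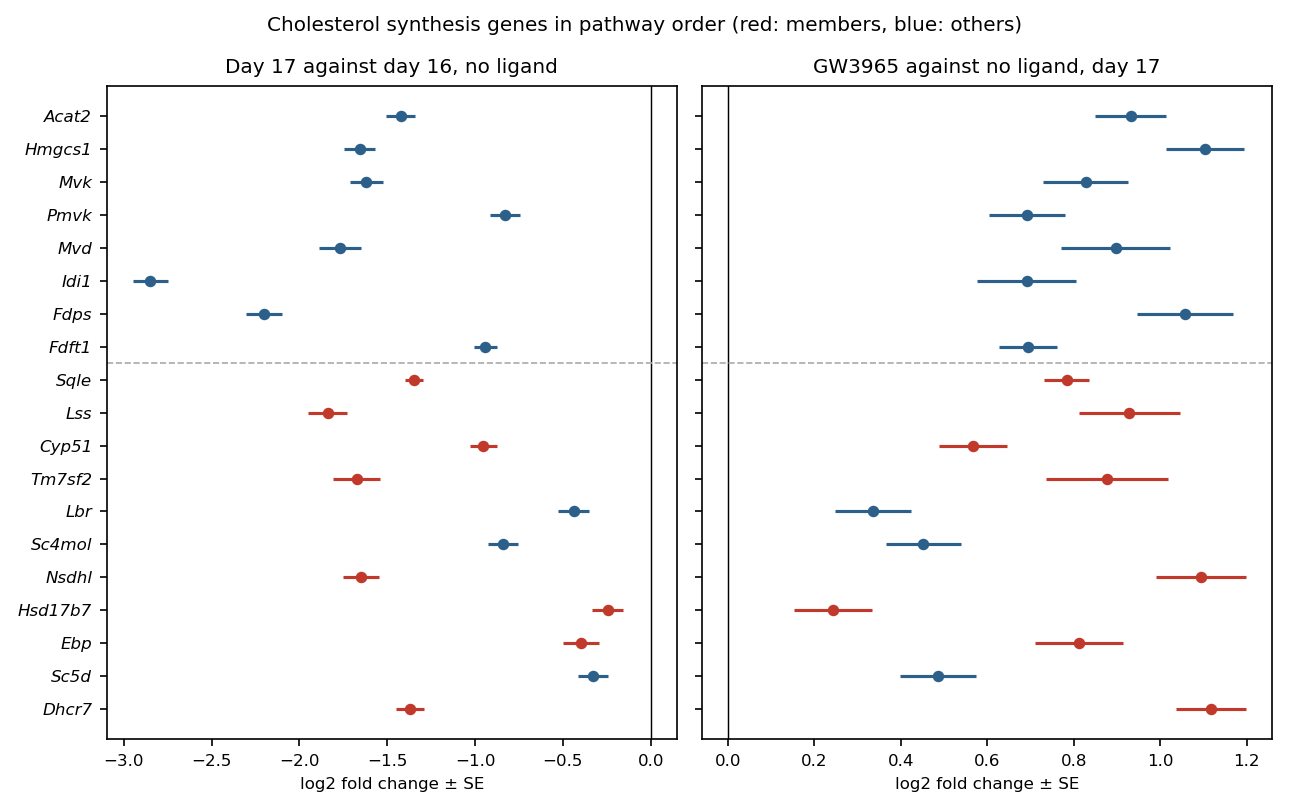
Log2 fold change (horizontal axis) of 19 genes of cholesterol synthesis in pathway order down the vertical axis, in a panel for day 17 against day 16 without ligand and a panel for day 17 with GW3965 against day 17 without it; red points are the 8 genes, blue points the others, bars are standard errors, and the dashed line parts the mevalonate arm from the sterol arm. With GW3965 all 19 lie above 0, and without ligand all 19 lie below 0; the comparisons share the day 17 libraries without ligand.

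Ranked over the 9 groups, day 17 without ligand was lowest and day 17 with GW3965 next to lowest for Sqle, Lss, Cyp51, Tm7sf2, Nsdhl and Dhcr7, and in none of these 6 genes did those groups overlap with a neighbour in rank. Lss had the widest span, 9.89-fold between the highest and the lowest group mean, followed by Dhcr7 at 8.20-fold. Both genes were highest with both ligands in ES cells, then with GW3965, LG268 and no ligand, with no overlap among these 4 groups. For none of these orders was the share over all tested genes counted. Tm7sf2 spanned 4.43-fold, Nsdhl 3.70-fold, Sqle 3.16-fold, Hsd17b7 3.14-fold and Cyp51 2.06-fold, and Ebp had the narrowest span at 1.79-fold. Tm7sf2, Nsdhl, Hsd17b7 and Cyp51 were highest at day 8, Sqle in the ES control and Ebp with GW3965 in ES cells. For Cyp51, Nsdhl and Ebp, 4 of the 8 pairs of neighbours in rank overlapped.

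As a description over the 9 group means, which share libraries and depth scaling, the log2 levels of Nsdhl (r = 0.976), Sqle (0.97), Cyp51 (0.964) and Tm7sf2 (0.943) were closest to the mean of the 8 standardized profiles. Lss (0.855), Dhcr7 (0.789) and Ebp (0.68) were less close, and Hsd17b7 was not related to it (r = -0.0574). The pairs most alike were Cyp51 with Nsdhl (r = 0.986) and Lss with Dhcr7 (0.978). Hsd17b7 ran against Dhcr7 (r = -0.63) and Lss (-0.524). In standardized units the mean profile stood at -1.892 at day 17 without ligand and between -0.409 and 0.551 in the other groups. Likeness to this profile, of which each of the 8 genes is a part, therefore leans on the day 17 levels, which cross the file difference. Outside the 8 genes, the 5 genes most like their mean profile were Hmgcs1 (r = 0.9857), the histone demethylase gene Kdm3a (0.9823), the peroxiredoxin gene Prdx4 (0.9729), Gm6682 (0.9702) and Gm15787 (0.9693). Kdm3a had a geometric mean of 161 CPM at day 17 with GW3965 and 83.4 CPM at day 17 without it, and Hmgcs1 one of 438 CPM with GW3965 and 205 CPM without it on that day.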

How the data were processed

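RNA-seq gene counts of 18 mouse libraries (2 in each of 9 groups, grouped by title) were used as deposited by the authors, raw and unnormalized. The 5 summary lines per file were kept out of the library sizes. No-feature lines held 42.14 to 43.36% of reads in the day 17 files and 62.77 to 65.92% in the others. These are shares of all reads listed, including those aligned more than once, which only the day 17 files list. The shares are therefore not on the same base. Per the submitters' processing notes, mm10, TopHat2 2.0.7, Cufflinks 2.0.2, HTSeq 0.6.0 and Cuffdiff 2.0.2 were used. Their order, the strand setting and the annotation are not given in the sources used here.

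Genes passing filterByExpr were kept (17166), TMM factors lay between 0.9124 and 1.108, and a single edgeR 4.0.16 quasi-likelihood model (limma 3.58.1, R 4.3.3) over 9 groups gave 15 two-sided comparisons. It had 9 residual and 10.41 prior degrees of freedom. P-values were adjusted by Benjamini-Hochberg over all tested genes within a comparison, and called below 0.05 with no minimum fold. CPM used TMM-scaled library sizes, and RPKM the longest coding transcript of GENCODE M21. The code was tested on simulated data.

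The 8 genes were always reported. Other pathway genes were given as counts, with values for those called under a ligand or differing from the 8, and the 5 most alike genes by Pearson correlation over group means. The members and lists were chosen with earlier results of these data known. Msmo1 is listed as Sc4mol, and 3 genes of the lists are not reported here. The labels state no pairing of replicate numbers, and none was modelled in the main fit. Deviations of the first library from its group mean correlated between groups at -0.328 to 0.188 (36 group pairs). With 2 libraries a group these values cannot exclude pairing. Alternatives were no filter, a filter of 1 CPM in 4 libraries, DESeq2 1.42.0 size factors, the DESeq2 Wald test, a replicate block, a fit of the groups compared and leaving out each library. Fits without the day 17 libraries, and without the both-ligand and day 16 GW3965 libraries, were added after seeing the data.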

Additional observations from a re-analysis of the deposited data

Results flagged for a closer look

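The response to GW3965 differed between culture groups by a test of the difference itself (edgeR quasi-likelihood test, adjusted p below 0.05) for each of the following. For Lss the log2 response at day 16 minus that in ES cells was -0.54. At day 17 the log2 response was higher than in ES cells by 0.95 for Sqle, 0.56 for Lss, 0.71 for Cyp51, 0.67 for Tm7sf2, 1.09 for Nsdhl, 0.42 for Hsd17b7, 0.53 for Ebp and 0.92 for Dhcr7. It was higher at day 17 than at day 16 by 0.93 for Sqle, 1.10 for Lss, 0.69 for Cyp51, 0.66 for Tm7sf2, 1.14 for Nsdhl, 0.33 for Hsd17b7, 0.63 for Ebp and 1.02 for Dhcr7. Both sets share the 4 day 17 libraries, whose files treat reads aligned more than once differently. As the file names read, duration of exposure differs between days 16 and 17 along with age. The call of Hsd17b7 against day 16 was lost in 11 of 14 alternatives.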

How the results depend on the processing

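With 2 libraries a group, small differences turn on single libraries, and the shared spread assumes that all groups vary alike. No call of the 8 genes changed direction under any alternative: among called values recomputed, 541 stayed called and 67 were lost, and among those not called, 846 stayed so and 26 became called.

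The number of the 8 genes called with GW3965 in ES cells (0) became 1 with no filter, 4 in the fit of the groups compared and 1 without the both-ligand and day 16 GW3965 libraries. In the fit of the groups compared, LG268 in ES cells gave 2 (in place of 0), both ligands against control 2 (4), LG268 against GW3965 4 (0) and both ligands against LG268 1 (2). Both ligands against GW3965 (0) gave 2 with no filter, 1 with DESeq2 size factors, 2 with the DESeq2 Wald test and 1 without the day 17 libraries. GW3965 at day 16 (1) gave 0 with no filter, DESeq2 size factors, the Wald test, the fit of the groups compared and without the day 17 libraries. The causes were not tested.

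Leaving out 1 library gave ranges of 2 to 4 for both ligands against control (2 without the first control library), 0 to 2 against LG268, 0 to 1 against GW3965 (1 without the second both-ligand library), 0 to 1 for GW3965 at day 16 and 0 to 1 for the response at day 16 against ES cells. For the response at day 17 against ES cells the range was 4 to 8, with 5 without the first day 17 control library and 4 without the second day 17 GW3965 library. It was 7 to 8 for GW3965 at day 17, 6 to 8 for its response against day 16 and 6 to 7 for day 17 against day 16. For GW3965 at day 16 the Sqle call was lost whichever library of the comparison was left out, and the calls in those fits were of Lss or Tm7sf2. With a replicate block, both ligands against control gave 3 of 8 genes, without Hsd17b7 (adjusted p = 0.053). The block changed no other call of the 8 genes.

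Counts over all genes moved more: the fit of the groups compared called 369 genes (in place of 55) with GW3965 in ES cells, 843 (146) with LG268, 427 (1939) with both ligands, 892 (103) for LG268 against GW3965, 56 (722) for both ligands against LG268, 111 (1831) against GW3965 and 5 (23) for the departure from additivity. With no filter the counts were 164 with GW3965, 336 with LG268, 266 for LG268 against GW3965, 1373 for both ligands against LG268 and 617 for the departure from additivity, and with the Wald test 231 with LG268, 180 for LG268 against GW3965 and 175 for the departure. The departure gave 11 with DESeq2 size factors and 12 with the stricter filter. Without the both-ligand and day 16 GW3965 libraries the counts were 115, 295 and 224 for GW3965, LG268 and the one against the other. Leaving out 1 library gave 28 to 44 with GW3965, 42 to 70 with LG268, 29 to 35 for LG268 against GW3965, 718 to 2844 with both ligands, 103 to 2379 against LG268, 325 to 3077 against GW3965 and 2 to 1461 for the departure. The highest of each of these last 4 was without the second both-ligand library. It gave 3589 to 4880 (in place of 5446) for GW3965 at day 16 and 1566 to 2652 (2532) for its response against ES cells.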
